A study of Mus musculus with 22 samples.

Results

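Of the 22 libraries labelled hypothalamus, 4 held abundant collagen transcripts and few neural ones. Of these, 3 are labelled mutant ZT0 (replicates 1, 2 and 3) and 1 is labelled mutant ZT6 (replicate 3), and they were set against all 11 control libraries. They were chosen by measured values of these same data: the 3 fibrillar collagen genes Col1a1, Col1a2 and Col3a1 together took 7663 to 20200 counts per 1000000 of the library total (CPM), and 14 neuronal genes together took 57.5 to 188. The nearest library of more than 1000000 counts on the other side was a control at 263 CPM for the collagens, and the lowest neuronal sum there was 5289. In the 11 controls the sums ran from 19.5 to 263 and from 5289 to 8150, and in 6 other mutant libraries from 17.3 to 99.9 and from 5351 to 7909. The last mutant library, ZT6 replicate 2, holds 7348 counts and was left out. Because the whole contrast chose the libraries, every difference below is a description without a significance test. Nothing about the genotype can be read from it. In these 4 the markers go against the labelled tissue, and what tissue or cells they came from was not tested.

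All mice were C57BL/6J. PWScrm+/p− mice, labelled mutant, lack the Snord116 small nucleolar RNA genes on the paternal chromosome, and PWScrm+/p+ mice are the controls. Hypothalamus was taken at lights on (ZT0), 6 h later (ZT6), or at that later hour in mice kept awake for the 6 h (sleep deprivation, SD), and the study asks how the deletion and sleep loss change gene expression there. The controls number 3 at ZT0, 4 at ZT6 and 4 after SD. The 3 libraries labelled mutant ZT0 are the whole of that group. The labels give neither the sex nor the age of the mice, and nothing in them sets the 4 apart in tissue. The labels carry no replicate numbers. Those used here were given in accession order and only name the libraries.

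In units of 1000000 counts, library totals of the 4 were 15.49, 32.16, 3.12 and 17.77, and those of the controls 14.61 to 46.97. Values for the 4 are always given in the same order, with ZT0 replicates 1, 2 and 3 before the one labelled ZT6. Levels of single genes and lists below are CPM scaled by TMM factors (trimmed mean of M values), and controls are given by their lowest, median and highest value. A library with no count of a gene could still hold 3 by counting error alone, or 0.0933 to 0.961 CPM in the 4 and 0.0639 to 0.205 in the controls. A gene was called higher when all 4 libraries lay above all 11 controls with a log2 difference of at least 2 (4-fold), and lower in the mirror case. Errors of log2 differences are standard errors (SE), over 4 and 11 libraries. A gene at 0 in a whole group is given a bound in place of a fold, set against a floor of 3 counts over that group (0.0568 CPM over the 4, 0.00894 over the 11). Each bound is the smaller of the ratio of pooled counts and the ratio of the mean CPM to that floor.

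Fibroblasts are the connective tissue cells that make and remodel extracellular matrix. They secrete procollagen chains, hydroxylate and fold them in the endoplasmic reticulum, trim them outside the cell and crosslink the fibrils with lysyl oxidases. They grip this matrix through integrins tied to actin bundles. Activated fibroblasts take up contractile proteins of smooth muscle under serum response factor (SRF) and the YAP coactivator. In the hypothalamus such cells are few and lie in the meninges and around vessels, whereas neurons, astrocytes and oligodendrocytes make up the tissue.

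After the filter on low counts 19787 genes remained. Of these, 2096 (10.6%) were higher in the 4 libraries and 3857 (19.5%) were lower, with a median log2 difference of -0.23 over all genes. Protein-coding genes made up 89.1% of the higher and 84.1% of the lower genes. A gene near 0 in controls could pass the filter mainly through the 4 libraries and could then hardly be called lower. Pooled over libraries, 3 counts equal 0.0568 CPM in the 4 and 0.00894 in the controls, so numbers of genes at 0 are not comparable. In all 4 libraries together 766 of the genes had 0 counts, while 18 had 0 counts in all controls. Across these genes, Spearman correlations were 0.919 to 0.965 between the 4, 0.604 to 0.659 (median 0.637) between one of the 4 and a control, and 0.916 to 0.991 between controls. These correlations are across genes, which are not independent replicates. The 4 libraries were thus about as similar to one another as controls were, with the labelled mutant ZT0 replicate 3 and mutant ZT6 replicate 3 closest.

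**Figure D1:**
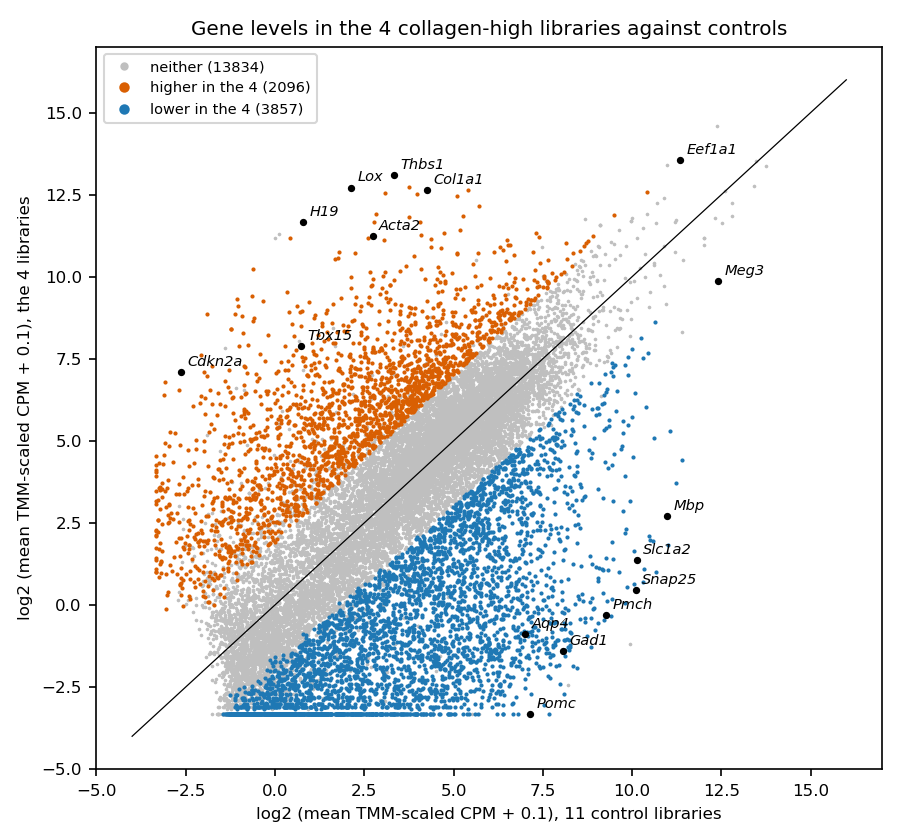
Mean level of each of the 19787 genes in the 4 libraries (vertical axis) against the 11 controls (horizontal axis), both as log2 of TMM-scaled CPM + 0.1; orange points are the 2096 higher and blue points the 3857 lower genes, and the line marks equal levels. Matrix genes such as Col1a1 and Lox lie far above the line, and neural genes such as Snap25 and Mbp far below.

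The 5 marker genes of the rule were the starting point. Col1a1 (chromosome 11, 94936224 to 94953042, GRCm38), a chain of type I collagen, stood at 5218, 5869, 7545 and 6964 CPM, against 2.43, 10.4 and 90.9 in controls. Col1a2 (chromosome 6, 4504814 to 4541544), its partner chain, stood at 4373, 7853, 5187 and 5360 against 11.9, 23.4 and 105.5. Both were at similar levels in the 4, and no control came near them. Col3a1 (chromosome 1, 45311538 to 45349706), the chain of type III collagen, stood at 996, 13010, 7783 and 5705 against 2.43, 6.23 and 43.6. It was the most uneven of the collagen markers, lowest in mutant ZT0 replicate 1. Lox, the lysyl oxidase that crosslinks collagen, stood at 3832, 9724, 5246 and 8038 against 0.32, 1.01 and 14.98, a log2 difference of 10.63 ± 1.03. H19 (chromosome 7, 142575529 to 142578143), a maternally expressed long noncoding RNA abundant in fetal mesoderm, stood at 1453, 3204, 5242 and 3069 against 0.118, 0.703 and 5.44, a log2 difference of 10.98 ± 0.84. The control values themselves span a wide range. The groups do not overlap for any of the 5, but these markers came with the rule that chose the libraries, so their separation is no independent result.

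The wider matrix followed. Of 20 other collagens and structural matrix genes, all passed the filter and 18 were higher, with a median log2 difference of 6.64. The list summed to 38090, 58650, 52280 and 61450 CPM against 1377 to 2380 in controls. Thbs1, the matrix protein thrombospondin 1, was at 8023, 3888, 9231 and 13740 CPM against at most 30.8, and Postn (periostin) at 2163, 12040, 4525 and 5169 against at most 17.8. Bgn (biglycan) was even in the 4, at 5148 to 6719 CPM against at most 35.3. Col5a1, which nucleates type I fibrils, was at 1933 to 4278 against at most 15.3. The basement membrane chains Col4a1 and Col4a2 were higher too, at 1768 to 3316 and 1881 to 2175 CPM. The members that did not meet the rule were Sparc and Fmod. Sparc, a collagen-binding glycoprotein made by astrocytes and vessels as well, was at 4387 to 5935 CPM against 1131 to 1997, separated but under 4-fold. Fmod (fibromodulin) was at 22.8 to 70.6 against 2.38 to 31.5, so its groups overlap. The 5 rule markers and this list together took 3.91, 7.43, 7.41 and 7.43% of all counts, and 0.161 to 0.27% in controls.

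Genes that modify and export collagen were higher as a group, though by less. Of 20, 17 were higher and none lower, with a median log2 difference of 4.02. The largest differences were those of Loxl2 (7.58 ± 0.41), Pcolce (7.05 ± 0.31), Loxl3 (6.76 ± 0.19) and Loxl1 (6.48 ± 0.29). Loxl1, Loxl2 and Loxl3 are lysyl oxidase relatives, and Pcolce enhances the trimming of procollagen. The procollagen chaperone Serpinh1 was at 1057, 1211, 769 and 906 CPM against 2.16, 17.7 and 43.4. The prolyl hydroxylases P4ha1, P4ha2 and P4ha3 and the lysyl hydroxylases Plod1, Plod2 and Plod3 were all higher, by log2 differences from 2.99 to 4.42. Adamts2, Sec23a and Mia3 did not meet the rule, at log2 differences of 1.96, 1.23 and 0.82. Sec23a and Mia3 serve secretion in many cells, and their control levels were already 67.0 to 163 CPM.

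Genes that remodel matrix were higher in most cases. Of 17 such genes 16 passed the filter, 10 were higher and none lower, with a median log2 difference of 5.7. Timp1, an inhibitor of metalloproteinases, was at 393 to 808 against at most 3.64, and the gelatinase Mmp2 at 375, 1781, 586 and 480 against at most 7.25. Timp2 and Timp3, which the control hypothalamus expressed at 136 to 610 CPM, differed by less than 4-fold.

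Fibroblast identity genes were higher in most but not all cases. Of 20, 15 were higher and none lower, with a median log2 difference of 5.94. Vim, the mesenchymal intermediate filament, was at 7896, 1963, 4038 and 4197 CPM against 30.8 to 97.7. Fbln2 (fibulin 2) was at 2328 to 5299 against at most 16.4, and S100a4, a calcium-binding protein of motile mesenchymal cells, at 3493, 345, 929 and 1363 against at most 8.76. The transcription factors Prrx1 (401 to 683 CPM against 8.74 to 18.9) and Twist2 (25.7 to 69.5 against at most 0.785), both active in mesenchyme, were present in all 4 libraries at comparable levels. Pdgfra and Pdgfrb, receptors for platelet-derived growth factor, were at 124, 1118, 397 and 418 and at 216, 227, 358 and 355 CPM. Controls held 38.6 to 67.0 CPM of Pdgfra, which oligodendrocyte precursors also express. The 5 members without a call were Thy1, Lum, Fap, Pi16 and Cd34. Thy1 is a neuronal gene as well, and its levels of 227 to 640 CPM overlap the controls at 174 to 418. Lum (lumican) was at 1.87, 1337, 33.5 and 27.5 CPM, so that mutant ZT0 replicate 1 lay among the controls, which reached 8.11. Pi16, a marker of adventitial fibroblasts, was at 1.36 to 11.5 CPM in the 4 and at 5.40 to 14.1 in controls.

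**Figure D2:**
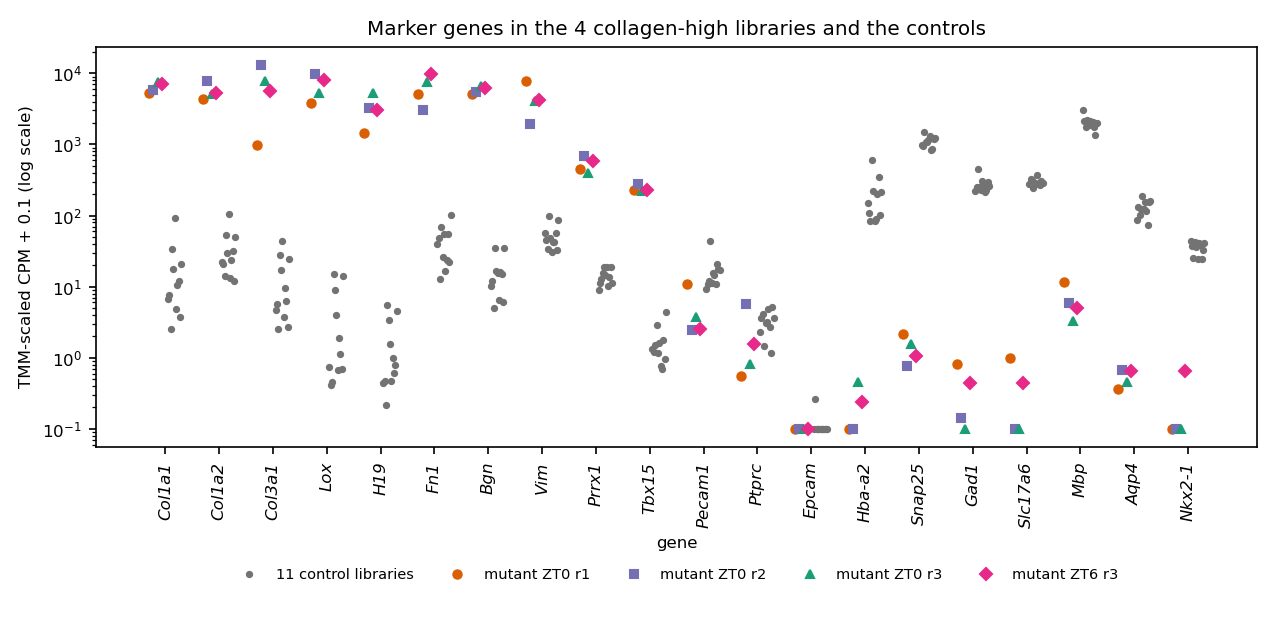
Level of 20 marker genes as TMM-scaled CPM + 0.1 on a log scale in the 4 libraries (coloured symbols, 1 per library; r, replicate) and in the 11 controls (grey points); a point at 0.1 stands for 0 counts. The matrix and mesenchyme genes from Col1a1 to Tbx15 lie above all controls, the vessel, white cell and epithelial genes Pecam1, Ptprc and Epcam overlap them, and Hba-a2 and the neural genes from Snap25 to Nkx2-1 lie below them.

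Contractile genes were higher in all 4. Their list holds 18 genes of the actin cytoskeleton and of known SRF and YAP targets, of which 17 passed the filter and all 17 were higher, with a median log2 difference of 5.72. The SRF protein binds a 10-base promoter element, the CArG box. The pattern searched for (CC, then only A or T, then GG) is its own reverse complement, so that 1 search covers both strands. In RefSeq promoter windows of 300 bases (250 before and 50 after the start, GRCm38.p6), 15 of the 18 genes had an entry. The windows of 3 held a CArG box. Over all genes, 535 of 32851 windows (1.63%) held one. The former is a count of genes and the latter of windows, and the list was drawn up with known SRF targets, so the 2 were not compared. These 3 windows are shown because they hold a box, printed in capitals, and were not chosen by the levels of their genes. They are Cnn2 (chr10:79988350-79988649, plus strand, box starting 56 bases before the start), Myl9 (chr2:156775214-156775513, plus strand, 161 bases before) and Vcl (chr14:20929148-20929447, plus strand, 227 bases before). A match of letters is no evidence of binding, and boxes elsewhere were not searched.

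Cnn2: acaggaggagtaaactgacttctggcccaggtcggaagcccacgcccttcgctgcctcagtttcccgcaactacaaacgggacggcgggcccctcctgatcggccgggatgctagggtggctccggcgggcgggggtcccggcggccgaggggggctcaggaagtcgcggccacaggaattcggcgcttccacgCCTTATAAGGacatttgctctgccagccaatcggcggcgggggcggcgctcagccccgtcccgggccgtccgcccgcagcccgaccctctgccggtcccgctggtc
Myl9: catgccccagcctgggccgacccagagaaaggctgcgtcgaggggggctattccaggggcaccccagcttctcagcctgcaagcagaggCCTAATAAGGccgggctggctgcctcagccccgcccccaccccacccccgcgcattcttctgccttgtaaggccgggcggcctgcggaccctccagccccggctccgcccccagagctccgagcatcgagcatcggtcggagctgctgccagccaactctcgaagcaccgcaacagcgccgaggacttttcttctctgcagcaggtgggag
Vcl: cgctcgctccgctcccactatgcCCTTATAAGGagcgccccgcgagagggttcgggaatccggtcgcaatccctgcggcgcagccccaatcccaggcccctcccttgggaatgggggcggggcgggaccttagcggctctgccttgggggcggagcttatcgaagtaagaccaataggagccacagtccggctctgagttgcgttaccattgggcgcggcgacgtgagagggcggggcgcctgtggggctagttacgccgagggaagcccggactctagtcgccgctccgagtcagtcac

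Cnn2, an actin-binding calponin, was at 1001, 168, 384 and 427 CPM against 1.53, 4.69 and 10.9 in controls. Myl9, the light chain of smooth muscle myosin, was at 782, 81.1, 210 and 256 against 6.09, 10.1 and 18.5. Vcl (vinculin), which ties actin to integrins, was at 694, 276, 381 and 751 against 15.4, 18.8 and 29.7. All 3 were lowest in mutant ZT0 replicate 2. Acta2, smooth muscle actin and the usual mark of an activated fibroblast, was at 6060, 591, 1162 and 1901 against 4.38, 5.55 and 16.2, a log2 difference of 8.53 ± 0.49 (7.53 without mutant ZT0 replicate 1). Tagln (transgelin) was at 2796, 430, 531 and 768 against at most 17.97. The matrix signalling proteins Ccn1 and Ccn2, targets of YAP, were at 1415, 898, 853 and 917 and at 2479, 179, 563 and 962, against at most 7.74 and 22.7. The list summed to 26150, 7038, 9342 and 14070 CPM, so mutant ZT0 replicate 1 led in most members. Ankrd1, the member that did not pass the filter, had counts in mutant ZT6 replicate 3 alone among the 4, at 10.9 CPM.

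Adhesion genes stood with the contractile ones. Of 14 integrin and focal adhesion genes 11 were higher and none lower, with a median log2 difference of 2.92. Itga5, which with Itgb1 forms the fibronectin receptor, was at 812, 627, 402 and 574 CPM against at most 4.29. Itgb1 itself was at 1571 to 2655 against 65.6 to 138. Their ligand Fn1 (fibronectin) was at 5131, 3029, 7451 and 9743 CPM against 12.9 to 100.1.

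Genes of smooth muscle cells and pericytes were called at about the shares of all genes. Of 9, with a median log2 difference of 1.21, 1 was higher (Myh11, smooth muscle myosin, at 66.7, 14.1, 23.0 and 88.5 CPM against at most 9.22) and 2 were lower. Rgs5, a signalling regulator typical of brain pericytes, was at 1.69 to 2.52 CPM against 36.8 to 76.0, and the pericyte gene Higd1b had 0 counts in all 4, at least 30.9-fold below the controls. Des (desmin) was at 184.6 CPM in mutant ZT0 replicate 2 and at 2.41 to 7.92 in the others. The list summed to 120.3 to 321.2 CPM in the 4 and to 87.5 to 135 in controls.

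Markers of fibroblasts in the meninges, the connective tissue nearest to the hypothalamus, were split. Of 14, 13 passed the filter, 3 were higher and 5 lower, with a median log2 difference of -0.84 (-0.46 without mutant ZT0 replicate 1). The higher ones were Foxc1 and Tbx18, transcription factors (26.1 to 40.9 and 12.9 to 49.2 CPM), and Ogn (osteoglycin). The lower ones were Slc6a13, Slc22a6 and Slc47a1, all membrane transporters, the prostaglandin synthase Ptgds and the tight junction gene Cldn11. Cldn11, at 93.4 to 159 CPM in controls, is also a member of the oligodendrocyte list used below. Ptgds, which oligodendrocytes also make, was at 1.61, 22.6, 2.88 and 1.44 CPM against 159, 798 and 2407. Slc22a6 had 0 counts in all 4 and was at least 65.6-fold below the controls. Aldh1a2, the retinoic acid enzyme of the arachnoid, was at 0.535 to 6.502 CPM and overlapped the controls at 1.92 to 14.7.

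Of 12 markers of dermal and other mesenchymal fibroblasts, 3 were higher and 2 lower. Tbx15, a transcription factor of trunk and limb mesenchyme, was even in the 4, at 228, 274, 222 and 228 CPM against 0.592 to 4.24. En1, which marks dermal and ventral limb lineages as well as midbrain, was at 12.3 to 23.4 against at most 5.16, and Ebf1 at 65.8 to 139.8 against at most 12.7. Wif1 and Inmt were lower, and Dpp4, Dlk1, Sfrp2, Crabp1, Msx1, Gpx3 and Apcdd1 met neither rule. In both lists most members were not higher in the 4 libraries.

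Position along the body axis is recorded in mesenchymal cells by homeobox genes, which are scarcely active in the forebrain. Of 39 Hox genes 32 passed the filter and 30 were higher, with none lower. They summed to 179, 312, 390 and 387 CPM against 1.41 to 7.73 in controls. Members so near 0 in controls could pass the filter mainly through the 4 libraries and could hardly be lower. The numbers called were thus set in part by the filter. Genes of the distal end of the clusters were included: Hoxc10 was at 2.32, 13.6, 29.5 and 22.6 CPM, Hoxa11 at 2.77, 27.6, 20.9 and 14.3, and Hoxd13, a gene of the tail and the distal limb bud, at 3.84, 35.4, 7.92 and 13.7. None of these 3 had a count in any control, which makes the differences at least 1620-fold, 1830-fold and 1700-fold. The bound of Hoxd13 is 947-fold without mutant ZT0 replicate 2. Among 39 other positional transcription factors 33 passed and 15 were higher, while the forebrain factors Lhx2, Dlx5 and Isl1 were among the lower ones. Hand2, a factor of heart and limb mesenchyme, was at 9.01 to 26.6 CPM against at most 0.0643. The limb factors Tbx4 and Tbx5 were both present, at 1.52, 37.9, 11.5 and 8.72 and at 4.55, 6.09, 20.5 and 18.4 CPM, against at most 0.703 and 2.11. Tcf21 and Hand1, factors of visceral mesoderm, did not pass the filter and reached at most 0.453 and 0.329 CPM in the 4. Gata6, of the same list, was higher, at 4.82, 22.6, 10.1 and 10.3 CPM against at most 0.0393. Hand2 and Gata6, so near 0 in controls, may likewise have passed the filter mainly through the 4 libraries. What body region the 4 came from was not tested.

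Other cell types were looked for by their defining genes. Epithelial genes were low: of 11 none was higher, and Epcam, Krt5, Cldn4 and Esrp1 had 0 counts in all 4. All 5 red cell genes were lower, and Hba-a2, a globin chain, was at 0, 0, 0.36 and 0.137 CPM (3 counts in all) against 83.9 to 595 in controls. Of 11 endothelial genes none was higher and 5 were lower. The tight junction gene Cldn5 was at 0.178 CPM in mutant ZT0 replicate 1 and at 0 in the other 3, against 9.07 to 29.4. The endothelial receptors Kdr, Tek and Flt1 overlapped the controls, at 4.32 to 19.4, 1.36 to 12.2 and 52.2 to 144.9 CPM. Skeletal muscle had 0 counts for 7 of 11 genes, among them the lineage factors Myod1 and Myf5. The bone factor Sp7 and osteocalcin (Bglap) had 0 counts, whereas Runx2, active in many mesenchymal cells, was at 21.7 to 29.9 CPM against at most 4.92. Schwann and melanocyte genes reached at most 2.35 CPM apart from Pmp22 (164 to 521 CPM), which fibroblasts express. The pluripotency genes Pou5f1 and Zfp42 had at most 0.36 CPM.

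Adipocyte genes were partly present. Of 7, 2 passed the filter and both were higher: Fabp4, a fatty acid carrier, at 130, 894, 309 and 394 CPM against at most 1.94, and the master regulator Pparg at 7.58, 2.26, 7.92 and 7.14 against at most 1.35. Adipoq (adiponectin) was at 0, 22.4, 16.6 and 23.5 CPM and Cidec, a lipid droplet protein, at 0.0892, 26.9, 17.3 and 35.8. Mutant ZT0 replicate 1 thus lacked both, while leptin (Lep) and adipsin (Cfd) had 0 counts in all 4. With a control median of 0.241 CPM, Fabp4 may have passed the filter mainly through the 4 libraries.

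White blood cell genes separated 1 library from the rest. Of 11 genes 9 passed the filter, 1 (Lyz2, a lysozyme of macrophages) was higher and 2 (Csf1r and Laptm5) were lower. These numbers are near the shares of all genes (10.6 and 19.5%). The list summed to 29.1, 284, 33.9 and 52.9 CPM against 76.6 to 137. In mutant ZT0 replicate 2 the macrophage genes Lyz2, Adgre1 and Cybb were at 158, 37.8 and 180.2 CPM, and in the other 3 libraries at most at 31.0, 1.24 and 0.961. Csf1r, the receptor that macrophages and microglia depend on, was lower in all 4, at 3.501 to 10.3 CPM against 33.7 to 71.4. The T cell gene Cd3e had 0 counts in all 4.

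**Figure D3:**
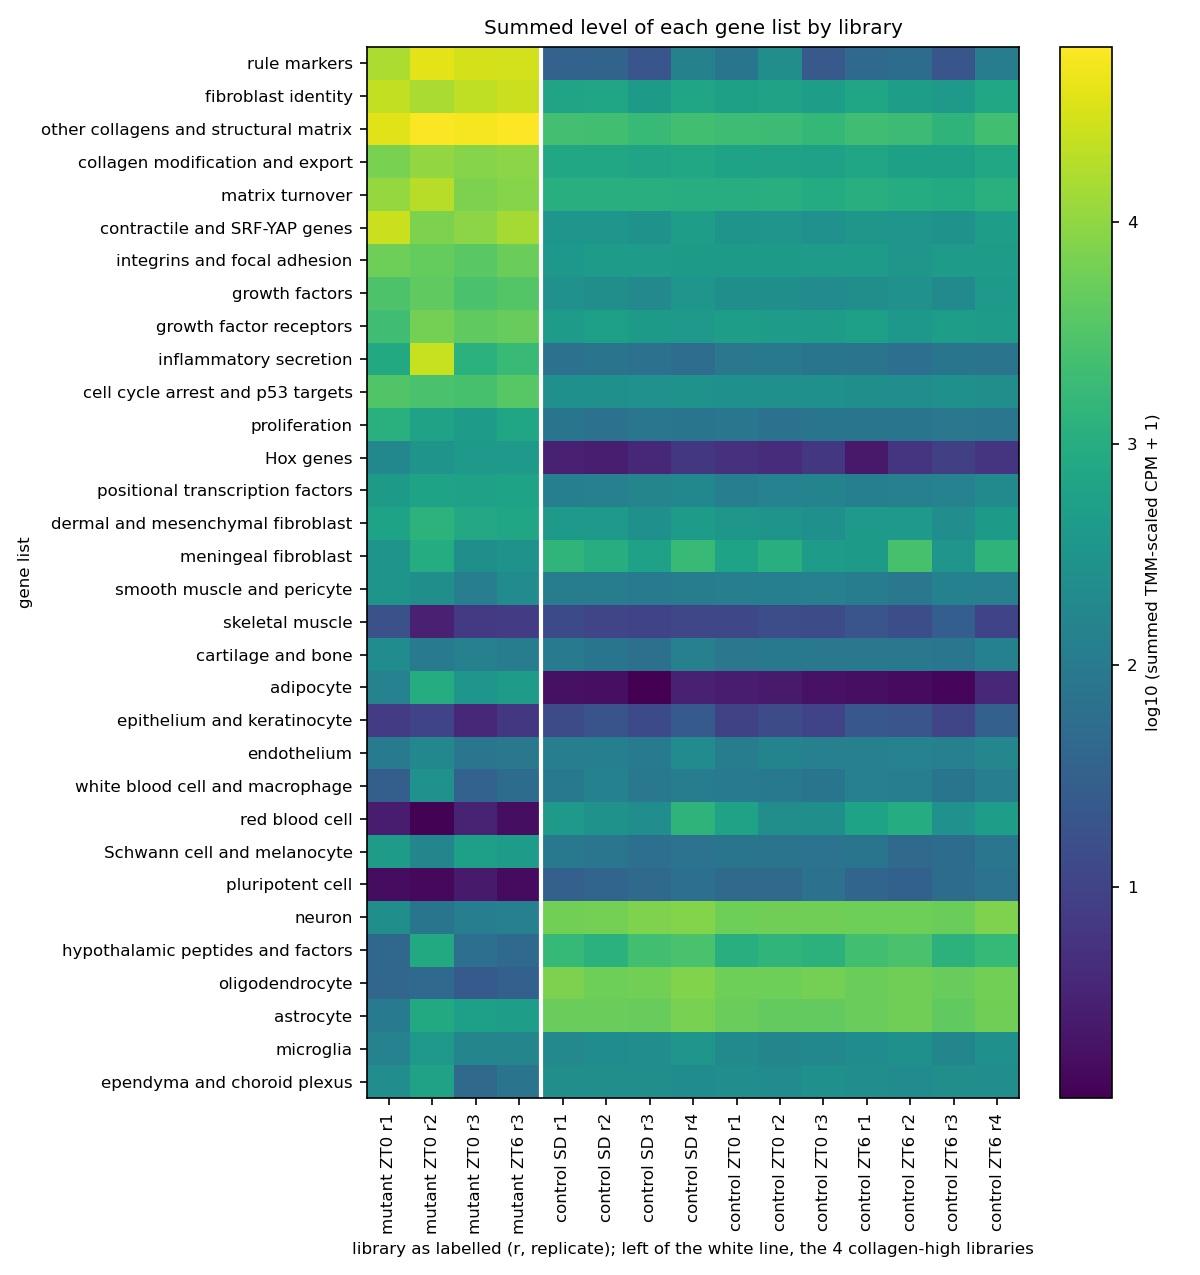
Summed level of 32 gene lists (rows) in the 4 libraries (columns left of the white line; r, replicate) and in the 11 controls (right), as log10 of summed TMM-scaled CPM + 1 in colour. Matrix, contractile and Hox lists are brighter on the left, and red cell, pluripotent cell, neuron and oligodendrocyte lists on the right.

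Neural transcripts were scarce. The sum of 14 neuronal genes was one of the values by which the libraries were chosen, so low levels of these genes were set by that choice. All 14 were lower, with a median log2 difference of -8.80. Over these genes the median level was 0.344, 0.101, 0.143 and 0.284% of the control median. The summed level of the list was 4.42, 1.3, 2 and 2.17% of that in controls, more than the medians because of a few members. Snap25, a protein of synaptic vesicle release, was at 2.05, 0.658, 1.44 and 0.961 CPM against 824, 1091 and 1492. The GABA enzyme Gad1 was at 0.714, 0.0411, 0 and 0.343 against 212 to 457, and Slc17a6, the vesicular glutamate transporter of hypothalamic neurons, at 0.892, 0, 0 and 0.343 against 245 to 371. The smallest differences were in genes that dividing or migrating cells also use. The tubulin Tubb3 was at 138, 12.3, 62.7 and 69.3 CPM against 185 to 572, and the growth cone gene Gap43 at 73.4, 14.2, 24.5 and 24.6 against 382 to 712. In bulk RNA fewer cells of a type and less RNA per cell cannot be told apart.

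Of 18 hypothalamic peptide and factor genes 15 were lower. Pmch (melanin-concentrating hormone) was at 1.52, 0.494, 0.36 and 0.48 CPM against 336 to 1070, and Hcrt (orexin) at 0.714, 0.0823, 0 and 0.137 against 21.7 to 131. Pomc had 0 counts in all 4, at least 2490-fold below controls that themselves ran from 16.1 to 1043 CPM. Without the highest control, ZT6 replicate 1, that bound is 897-fold. Nkx2-1, the factor that specifies the ventral hypothalamus, had counts only in mutant ZT6 replicate 3, at 0.549 CPM against 24.6 to 44.2. Gal, Lhx6 and Penk met neither rule. Penk, the enkephalin precursor, was at 22.4, 845, 54.0 and 39.3 CPM against 62.2 to 312, and made up nearly all of the list's 851 CPM in mutant ZT0 replicate 2.

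Genes of glia were lower to unequal degrees. All 10 oligodendrocyte genes were lower, with medians of 0.147 to 0.235% of the control level: Mbp (myelin basic protein) was at 11.6, 5.84, 3.24 and 4.87 CPM against 1356 to 3041, and Opalin at 0 in all 4, at least 349-fold lower. The oligodendrocyte list summed to 0.41 to 0.8% of the control level. Of 10 astrocyte genes 9 were lower, with medians of 0.291 to 0.535% of the control level. The summed level of the astrocyte list was 2 to 17.1% of that in controls, most of it from 1 member, Gja1. Aqp4, the water channel of astrocyte endfeet, was at 0.268 to 0.576 CPM against 74.5 to 185, and the glutamate transporter Slc1a2 at 1.08 to 3.91 against 786 to 1550. The exception was Gja1 (connexin 43), which fibroblasts also use, at 72.2, 797, 449 and 432 CPM against 178 to 307. Of 8 microglial genes 4 were lower, among them P2ry12 at 0 counts (at least 245-fold), and Tmem119, a membrane protein that bone-forming and mesenchymal cells also express, was higher at 84.7, 229, 96.9 and 81.3 CPM against 4.49 to 13.8. The microglial sum of 138.5 to 412.9 CPM overlapped that of the controls, but Tmem119 made up most of it in each of the 4. Besides P2ry12, the lower members Cx3cr1 and Siglech were at most at 1.72 and 0.288 CPM, against at least 23.9 and 7.41 in controls. The other 3 microglial genes met neither rule. Of 10 genes of ependyma and choroid plexus 6 were lower and 1, the water channel Aqp1, was higher at 45.4 to 265 CPM against at most 1.59.

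The 15 lower genes with the largest differences at 50 CPM or more were mostly neuronal. Faim2, a neuronal inhibitor of cell death, had 0 counts in the 4 and 133 to 305 CPM in controls, at least 3590-fold apart. Myt1l, a factor that holds neuronal identity, had 0 counts against 82.6 to 141 CPM (at least 1910-fold). Also at 0 were Ptpro, Pde1b, Scg3, Caskin1 and Synpr besides Pomc, with bounds of 901-fold to 1800-fold for the 5 others. Rph3a, Agap2, Calb2, Pnma3, Trim9, Lgi1 and Hba-a2 had 1 to 3 counts. Rph3a, a synaptic vesicle protein, was at 0, 0, 0.36 and 0 CPM against 176 to 435.

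Among the 15 higher genes with the largest differences 5 have been described or belong to lists above (Lox, H19) or below (Cdkn2a, Ccl2, Ccl7), and Cxcl1 and Cxcl5 are chemokines treated below. Xdh, xanthine dehydrogenase, was at 22.4, 167, 108 and 144.6 CPM against at most 0.213. Plac8 was at 79.3, 1184, 427 and 536 against at most 1.15. Serpinb9b, an inhibitor of serine proteases, was at 194, 55.6, 42.9 and 81.3 against at most 0.14. The other 5 were Serpina3m, Ifi205, Ptx3, Cxcl10 and the unnamed transcript Gm29233. Gm29233 lies within the span of Thbs1, on the opposite strand, and whether its counts come from Thbs1 was not tested. Ptx3, a soluble pattern recognition protein, stood at 116, 8434, 289 and 355 CPM, so that its mean rests on mutant ZT0 replicate 2.

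Per kb of exon, the highest means in the 4 libraries were those of short noncoding RNAs. Mir6236 (88660 CPM per kb), the trio Gm23935, Gm24245 and Gm24270, Gm15564 and the signal recognition particle RNAs Rn7s1 and Rn7s2 led, and Gm26377, mt-Co2 and mt-Co1 completed the first 10. Gm26377 lies within the span of the abundant gene Eef1a1, on the same strand, and whether its counts come from that gene was not tested. The trio carries identical values in every one of the 4 libraries, as do Rn7s1 and Rn7s2, so reads of near-identical copies were divided among them and their separate levels are uncertain. RNAs annotated as structural classes took 5.22, 0.839, 3.05 and 0.21% of counts in the 4 and 0.747 to 9.89% in controls. These classes leave out Gm15564, annotated as antisense, and Mir6236, the trio and Gm26377, annotated as microRNAs. Gm15564 alone took 5.55, 0.842, 0.933 and 0.0252% in the 4. Among nuclear protein-coding genes, a set chosen after the values were seen, Eef1a1, the translation elongation factor, led at 4797 CPM per kb. Rplp1 followed at 3370, the metallothionein Mt2 at 2750, S100a4 at 2624 and the lectin Lgals1 at 2568. Ribosomal protein genes took 3.94 to 5.35% of counts against 1.04 to 3.03%, and mitochondrially encoded genes 3.29 to 5.11% against 6.02 to 11.7%.

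Both division and arrest genes were higher. Of 20 proliferation genes 17 were higher and none lower, with a median log2 difference of 3.52. Mki67, a nuclear protein of cycling cells, was at 98.5, 44.9, 46.4 and 71.7 CPM against 0.369 to 2.40, and the mitotic kinase Cdk1 at 73.3, 35.3, 22.7 and 38.6 against at most 0.772. Mcm5, Pcna and Tyms, used in DNA replication, were not called. Mutant ZT0 replicate 1 held the highest level of Mki67, Cdk1 and Top2a. Of 11 arrest and p53 target genes 10 were higher. Cdkn2a, the locus of the arrest proteins p16 and p19, was at 186, 61.3, 147 and 153 CPM against at most 0.257. So near 0 in controls, it may have passed the filter mainly through the 4 libraries. Cdkn1a, the p53-induced inhibitor p21, was at 761, 577, 447 and 461 against 2.86 to 22.04, and Eda2r, a p53-induced receptor, at 61.6, 101.2, 60.5 and 117 against at most 1.01. The p53 target Zmat3 was separated but under 4-fold.

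Ligands and receptors of growth factor pathways were higher in most cases. Of 22 ligands 16 were higher and none lower, with a median log2 difference of 3.73. The lymphatic growth factor Vegfd was at 229, 206, 382 and 349 CPM against at most 4.37, and the BMP antagonist Grem1 at 230, 345.5, 330.5 and 532 against at most 9.02. Fgf7, an epithelial mitogen that mesenchyme makes, was at 90.4 to 227 against at most 4.57, and the macrophage factor Csf1 at 688 to 1173 against 21.04 to 33.2. Vegfa, Pdgfa, Tgfb2, Il11, Hgf and Nrg1 met neither rule. Of 14 receptors 11 were higher. Osmr, the receptor of oncostatin M, was at 93.8, 700, 332 and 432 CPM against at most 4.23, and Tgfbr2, which binds transforming growth factor beta, at 113, 698, 387 and 381 against 7.07 to 15.7. Mutant ZT0 replicate 1 was the lowest of the 4 for Osmr, Tgfbr2, Egfr and Il1r1. Fgfr2, Tgfbr1 and Lifr met neither rule.

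Fetal growth genes were divided. Of 14, 8 were higher and 3 lower. Besides H19, the chromatin protein Hmga2 was at 582, 565, 293 and 539 CPM against at most 3.18, and the RNA-binding proteins Igf2bp1, Igf2bp2 and Igf2bp3 were at 29.5 to 191 CPM against at most 3.57. Igf2, which shares an imprinted domain with H19, was at 262, 1635, 501 and 402 against 22.2 to 144. Meg3 and Peg3, imprinted transcripts abundant in the hypothalamus, were lower, at 426 to 1362 against 3827 to 6862 and at 100.5 to 286 against 909 to 1725. Lin28b, a fetal RNA-binding protein, was lower as well, at 0 to 0.123 CPM against 6.29 to 17.2.

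Inflammatory genes set mutant ZT0 replicate 2 apart. Of 12 secretion genes 11 passed the filter, 9 were higher and 1 (Il33) was lower. Members near 0 in controls, such as Cxcl1 (control median 0 CPM) and Ccl2 (0.0982), could pass the filter mainly through the 4 libraries and could hardly be lower. The list summed to 855, 24740, 1205 and 1785 CPM against 54.8 to 91.3. Without mutant ZT0 replicate 2 the median log2 difference of the list was 5.6 in place of 9.71. The chemokine Ccl2 was at 166, 3923, 275 and 476 CPM against at most 3.64. The neutrophil attractants Cxcl1 and Cxcl5 were at 10.4, 700.3, 33.9 and 36.5 and at 6.69, 2633, 28.8 and 43.6 CPM, against at most 0.859 and 1.69. Ptgs2, the inducible prostaglandin synthase, was at 184, 791, 66.3 and 156 against at most 2.35. These genes were high in each library and highest in replicate 2. Others had a high level in replicate 2 alone. Saa3, an acute phase protein, was at 1.78, 9348, 5.76 and 3.98 CPM, Mmp3 (stromelysin) at 1.69, 10060, 14.04 and 8.17, and Nos2, the inducible nitric oxide synthase, at 0, 387, 0.36 and 0. For Saa3 and Nos2 the other 3 libraries reach into the range of the controls, which reached 5.63 and 1.39 CPM. The macrophage genes named above were highest in the same library, and their part in these values was not tested.

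The 4 libraries were compared with one another over 3271 genes of at least 100 CPM in any of them. Mutant ZT0 replicate 2 held 128 genes at least 4-fold above the highest of the other 3, and 11 genes at least 4-fold below the lowest. Mutant ZT0 replicate 1 held 71 and 31. Mutant ZT0 replicate 3 held none in either direction, and mutant ZT6 replicate 3 none above and 12 below. The high genes of replicate 1 included Col2a1, cartilage collagen, at 141 CPM against at most 0.755 in the others, and structural RNAs such as Gm24312 (215 against 10.2). Its low genes included Serpina3n, a secreted protease inhibitor (17.8 against 732 or more), and Prg4, the lubricin of joint surfaces and superficial fascia (5.71 against 124.7 or more). Also low there were Gfra1, Agtr2 and Ifi207. Low genes of replicate 2 were Kif1a, Akap12, Cemip, Galnt18 and Cavin2. Those of mutant ZT6 replicate 3 were led by Gm15564, annotated as antisense, and the structural RNAs Rmrp, Rn7sk, Rn7s1 and Rn7s2. Each of these contrasts rests on a single library and has no replicate check. Across genes, Spearman correlations among the 3 labelled ZT0 were 0.919 to 0.93, below the 0.965 of ZT0 replicate 3 with the library labelled ZT6.

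**Figure D4:**
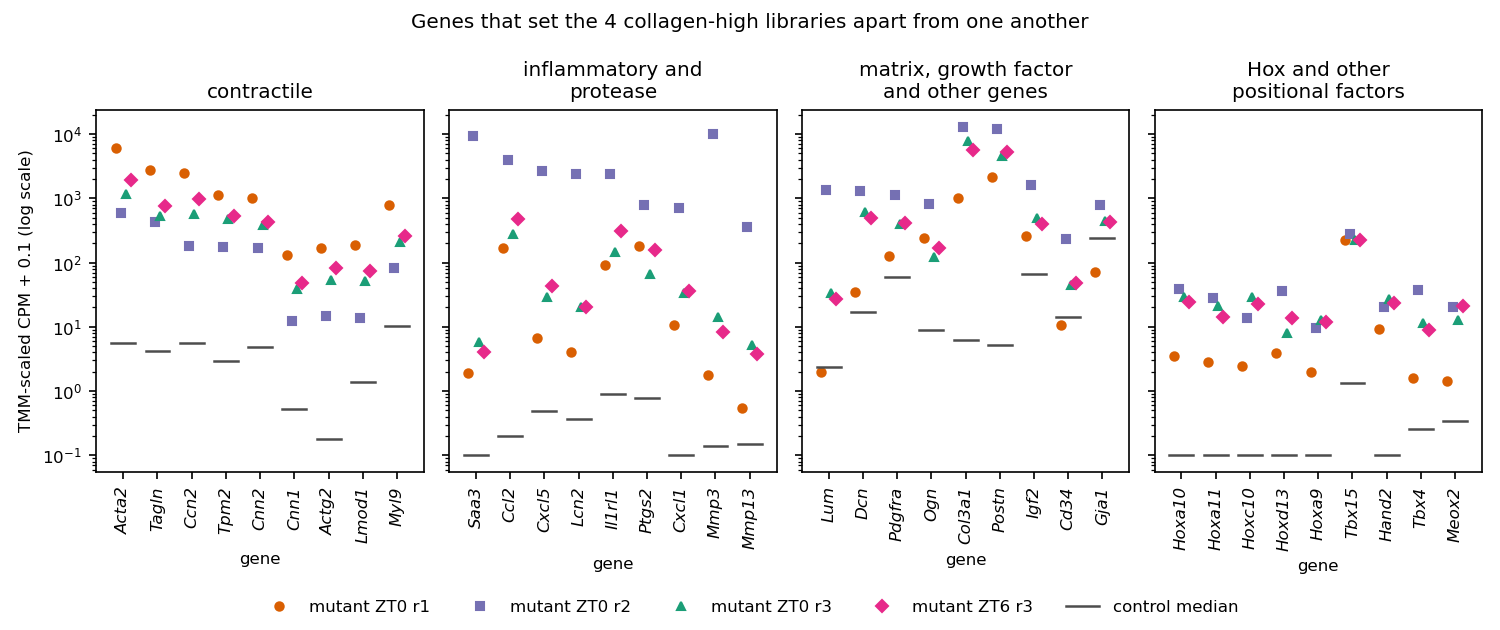
Level of 36 genes in each of the 4 libraries (coloured symbols; r, replicate) as TMM-scaled CPM + 0.1 on a log scale, with the control median as a bar; the genes were chosen after their values were seen. Contractile genes are highest in mutant ZT0 replicate 1, and inflammatory and protease genes are highest in mutant ZT0 replicate 2, while Tbx15 is even over the 4.

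Sex-linked genes also differed. Xist, the RNA that silences an X chromosome in females, was at 1.78, 1043, 1.8 and 1.17 CPM, and at 0.461 to 2.61 in controls. The Y-linked genes Ddx3y, Eif2s3y, Uty and Kdm5d were at 0.535, 0, 0.453 and 2.02 CPM in mutant ZT0 replicate 2. In the other 3 libraries Ddx3y was at 57.6 to 121 and Eif2s3y at 69.1 to 102.7, and in controls at 42.0 to 144 and 29.6 to 76.2. Mutant ZT0 replicate 2 thus held the female pattern of these genes, and the other 14 libraries the male one.

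The deleted locus could not be checked in these libraries. The 18 Snord116 genes taken here had 0 counts in all 4, and also in 2 of the 11 controls. Its host transcript Snhg14 is known to be mainly neuronal, and in libraries with so little neuronal RNA a deletion and a lack of these cells cannot be told apart.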

How the data were processed

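Polyadenylated RNA of 22 mouse hypothalamus samples was sequenced. Per the labels' protocols, the authors extracted RNA with Trizol, made TruSeq polyA libraries for a NovaSeq, trimmed reads with Trimmomatic 0.38, ran kallisto 0.44.0 against Ensembl 79 transcripts and summed to genes with tximport. The deposited values are expected counts (kallisto estimates, whole numbers, not normalised). Of 41461 lines 5 with a repeated gene ID were dropped. Coordinates are those of GENCODE M21 (GRCm38).

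A fit in edgeR 4.0.16 (R 4.3.3; TMM, filterByExpr, minimum count 10), tested on simulated data, gave log2 differences between the 4 libraries and 11 controls, with SE as the difference over the root of F. Libraries and lists were chosen with earlier results of these data known, so no test is reported. Named were the markers, the separated members of each list, the 15 largest differences in each direction, the 10 highest levels per kb and 5 genes per library and direction. Penk, Gja1, Cybb, Lum, Des, the sex-linked genes and list members without a call were named after their values were seen, and so were examples outside a list's 4 largest differences. Every pair of the 4 differed by far more than counting noise (lowest chi-square per degree of freedom 80.51). Alternatives were RLE factors, library totals, no filter, DESeq2 1.42.0, a 2-fold limit, other reference libraries, thinning, and leaving out each library or (chosen after seeing the data) the structural RNAs.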

Additional observations from a re-analysis of the deposited data

Results flagged for a closer look

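Of 259 genes and list sums examined in the 4 libraries, 70 had 1 library far from the other 3: its gap to the nearest, divided by the whole range, was above Dixon's 95% critical value for 4 samples. That limit would flag about 1 in 20 groups of normally distributed values not chosen for it. CPM values are skewed, and a gene with counts in 1 library alone is always flagged, so that rate does not hold here. Many of these genes were named because a library stood apart, so the counts cannot be compared. All values are TMM-scaled CPM in the library that stood apart.

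Most belong to mutant ZT0 replicate 2. It was the highest of the 4 in the inflammatory and interferon-linked genes Saa3 (9348), Ccl2 (3923), Cxcl1 (700.3), Cxcl5 (2633), Cxcl10 (1808), Ptgs2 (790.8), Nos2 (386.6), Ptx3 (8434), Ifi205 (1614), Gbp2b (573), Serpina3m (271.8) and Lif (140.8). It was also the highest in the matrix and protease genes Mmp2 (1781), Mmp3 (10060), Mmp13 (362.3) and Lum (1337). The macrophage genes Csf1r (10.33), Lyz2 (158.1), Laptm5 (10.49), Adgre1 (37.82) and Cybb (180.2) were highest there too. So were the genes Cd34 (232.4), Des (184.6), Penk (845.3), Enpp2 (335.4), Tmem119 (229), Fth1 (12460), Xist (1043), Ptgds (22.63), Tbx15 (273.5) and Sox10 (1.893). Genes near 0 in the other 3 were Slc6a13 (0.1235), Inmt (0.0823), Siglech (0.2881), Tmem212 (0.04115) and Agap2 (0.0823). It was the lowest in Pparg (2.263) and Vwf (0). Among list sums it stood highest for inflammatory secretion (24740), meningeal fibroblast (953.2), white blood cell and macrophage (283.6), hypothalamic peptides and factors (851.4), microglia (412.9) and sex-linked (1046) genes. The meningeal sum there lay within the control range.

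Mutant ZT0 replicate 1 was the highest in Tagln (2796), Ccn1 (1415), Col2a1 (141.1), Mthfd2 (115.8) and Rps12-ps3 (1474), in the structural or antisense RNAs Gm15564 (76710), Gm25360 (103.8), Gm24312 (215.2), n-R5s106 (215.2) and n-R5s118 (215.2) and, at levels near 0, in Acan (0.6245), Cldn5 (0.1784), Slc32a1 (0.08921), Pmch (1.517), Pnma3 (0.08921) and Lgi1 (0.08921). Mutant ZT0 replicate 3 was the lowest in Hmga2 (292.7) and Eef1a1 (10910) and the highest, at low levels, in Alpl (1.44), Rph3a (0.3601) and Trim9 (0.3601). Mutant ZT6 replicate 3 was the highest in the histone methyltransferase gene Setd2 (119.3) and, at levels near 0, in Gjb6 (0.06864), Kl (0.06864), Ttr (0.06864) and Calb2 (0.2059).

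The shallow library mutant ZT6 replicate 2, used in no comparison, held 4 counts of Col1a1, Col1a2 and Col3a1 among 7348. That is 544.4 CPM of the library total (exact 95% interval 148 to 1390), above every control and below the 4 libraries, while its neuronal sum of 5852 CPM lay in the control range.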

How the results depend on the processing

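With a 2-fold limit in place of 4-fold, 3323 genes were higher and 4868 lower. Under every other alternative both counts stayed within 1.5 times the reported 2096 and 3857: 1582 and 4501 with library totals, 1636 and 2945 with all libraries thinned to the smallest, and 2077 to 2242 and 3828 to 4061 when each library was left out in turn. Library totals moved the median of all genes from -0.23 to -0.68 on the log2 scale, so differences should be read against that shift. Of 864 list medians under alternatives 79 moved. The sign changed in 2, both of the white blood cell and macrophage list, from -0.52 to 0.2 with the ZT0 controls alone and to 0.31 with the 6 other mutant libraries as reference, shifts within its spread. Of 5311 values of 223 named genes 682 moved, and no gene called higher or lower changed sign. Of the genes without a call 15 did under some alternative. Without mutant ZT0 replicate 2, Nos2 went from 7.94 to -2.98, Penk from 0.99 to -1.67, Adgre1 from 2.18 to -1.24, Gbp2b from 6.48 to -0.95 and Cybb from 5.57 to -0.16. Without mutant ZT0 replicate 1, Col2a1 went from 2.28 to -3.78. Without mutant ZT0 replicate 2 the inflammatory list's median was 5.6. No paired analysis was possible because the labels carry no replicate numbers. The shallowest of the 4 libraries is mutant ZT0 replicate 3, where a gene without counts could still be at up to 0.961 CPM.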

Other observations

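Of 20 glycolytic genes 3 were higher and 4 lower in the 4 libraries, near the shares of all genes (10.6 and 19.5%). The summed levels lay above every control, at 14290, 20900, 12510 and 13400 CPM against 5951 to 12210 in controls. The lower genes included the brain aldolase Aldoc at 2.59 to 8.19 CPM against 500 to 1172, and the neuronal enolase Eno2 at 11.4 to 44.3 against 457 to 863. Also lower were Ldhb at 47.1 to 79.9 against 238 to 703, and the phosphofructokinase Pfkm at 6.48 to 51.9 against 57.6 to 424. Higher were the hexokinase Hk2 (47.4, 159, 88.2 and 102.1 CPM against at most 11.4), Ldha (1140, 2772, 821 and 1056 against 134 to 274) and the lactate exporter Slc16a3 (8.83, 270.1, 85.0 and 88.5 against at most 6.59). The ubiquitous Aldoa, at 1125 to 1512 CPM, lay within the control range of 763 to 1578. Without mutant ZT0 replicate 2 the median log2 difference of the list was 0.33 in place of 1.02.

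Genes that make the amino acids of collagen were higher in part. Of 9 genes of glycine, serine and proline synthesis 5 were higher and none lower, with a median log2 difference of 2.24. Pycr1 and Aldh18a1, which make proline, were at 19.1 to 40.2 and 104 to 163 CPM against at most 6.49 and 28.8. Phgdh, the first enzyme of serine synthesis, was at 720 CPM in mutant ZT0 replicate 1 and at 113 to 177 in the other 3, against 47.5 to 96.4 in controls.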
